A study of Arabidopsis thaliana with 7 samples.

Results

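The 8 genes described here are carried by the plastid genome of Arabidopsis and encode core subunits of photosystem I (psaA, psaB, psaC), of the cytochrome b6f complex (petA, petB, petD, petG) and the large subunit of Rubisco (rbcL). They were found by symbol among the 69 plastid-encoded genes (locus tags beginning with ArthCp) that had a probe set listed with exactly 1 gene. All 8 were present, each with 1 probe set, among 22746 probe sets in all. No probe set listed with several genes included any of the 8. The arrays were hybridized with RNA of spores of untreated Landsberg erecta (Ler-0) plants with no introduced genetic change, grown in 1 growth room and pooled from many plants for each isolate. There were 2 arrays of uninucleate microspores (UNM), 2 of bicellular pollen (BCP), 2 of tricellular pollen (TCP) and a single array of mature pollen grains (MPG). The UNM, BCP and TCP isolates were gradient fractions that still held some spores of neighbouring stages. The BCP isolate also held microspores, tetrads and tricellular grains, and the TCP isolate bicellular pollen. The UNM isolate held a few tetrads and bicellular grains. MPG values have no replicate check.

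Photosystem I and cytochrome b6f sit in the thylakoid membrane, where the latter passes electrons from the plastoquinone pool to plastocyanin and the former passes them on to ferredoxin. Rubisco fixes carbon dioxide in the stroma. Their core subunits are made inside the plastid and many peripheral subunits and assembly factors are imported from the cytosol. Pollen plastids are not green, and the male gametophyte lives on sugars supplied by the anther. Labelling was primed with oligo(dT), whereas most plastid mRNAs have no stable poly(A) tail, so the signal of a plastid probe set follows RNA that was primed and cannot be read as a number of transcripts. In such bulk RNA, fewer plastids per cell and less RNA per plastid cannot be told apart.

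A signal is the deposited linear intensity of a probe set after each array was brought to a trimmed mean of 100 without control probe sets. Signals under 20 were raised to 20 before log2 values were taken. Differences were tested with limma in 1 fit of all 7 arrays over the 14364 probe sets that reached 40 on at least 1 array. A gene is said to have risen or fallen where the Benjamini-Hochberg adjusted p was below 0.05. For the lone MPG array the spread of the other stages was taken. All 8 genes reached 40 on both UNM and both BCP arrays. Signals are compared within a probe set only, because probe sets differ in brightness for reasons other than abundance.

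The labels were checked against marker genes. SWEET8, the 1 microspore and tetrad marker on the list, read 4494 and 6971 in UNM and 3692 and 6095 in BCP, which overlap. In TCP it read 871 and 820, and in MPG 1894. Of 3 meiocyte markers only SDS was measured. It read 45.7 and 72.0 in UNM, 45.2 and 56.9 in BCP, 27.3 and 22.4 in TCP and 43.5 in MPG. The summed signal of 6 late pollen genes (of 7 on the list) was 462 to 729 on the UNM arrays, 1160 to 1497 in BCP, 18417 to 18749 in TCP and 25766 in MPG. The brightest, PLIM2a, weighed most in this sum, at 7036 and 8760 in TCP and 11667 in MPG. SWEET5 alone of the 6 was lower in MPG than in TCP, at 3918 and 2606 in TCP and 572 in MPG. Only 2 of 13 markers of green sporophytic cells were measured, and they summed to 120 to 124 in UNM, 189 to 238 in BCP, 94.6 to 115 in TCP and 64.8 in MPG, so their sum was higher in BCP than in UNM. The 2 tapetum markers measured (of 8) summed to 55.9 and 70.7 in UNM, 28.1 and 26.8 in BCP, 21.0 and 16.3 in TCP and 3.43 in MPG. A9, a defining tapetum gene, read 22.0 and 27.4 in UNM and under 20 on every later array. A9 reached 40 on 0 arrays and EXL5, the other tapetum marker, on 1, so both signals lay near the floor. The lower sum of these 2 markers ran beside the decline of the plastid genes and its part in the result was not tested. The log2 ratio of 3′ to 5′ GAPDH control signals was 0.63 to 1.21 on the 4 arrays numbered replicate 1 and 2.76 to 3.19 on the 3 arrays numbered replicate 2. The same ratio of the actin controls moved with the stage instead, from 1.60 to 1.79 on the UNM and BCP arrays to -2.25, -1.85 and -2.19 on the TCP and MPG arrays.

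All 8 genes were highest in microspores and all fell on the way to mature pollen. psaA, 1 of the 2 reaction-centre proteins that bind P700, gave signals of 287 and 430 in UNM, 93.5 and 112 in BCP, 28.2 and 43.2 in TCP and 36.9 in MPG. Its partner psaB read 1988 and 2768 in UNM, 1011 and 1206 in BCP, 446 and 340 in TCP and 123 in MPG. psaC, the small subunit that carries the terminal iron-sulfur clusters, read 842 and 1223 in UNM, 111 and 135 in BCP, 76.4 and 59.4 in TCP and 39.5 in MPG. For psaB and psaC every array of a stage lay below every array of the stage before, and for psaA this held up to TCP, the MPG value lying between the 2 TCP values.

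petA, which encodes cytochrome f, read 1653 and 1953 in UNM, 888 and 1248 in BCP, 397 and 491 in TCP and 200.2 in MPG. petB, which encodes cytochrome b6, read 2276 and 2137 in UNM, 1369 and 798 in BCP, 674 and 309 in TCP and 209 in MPG. For both, every array of a stage lay below every array of the stage before, but the petB replicates lay far apart in BCP and TCP. petD, which encodes subunit IV, read 376 and 477 in UNM, 47.8 and 77.1 in BCP, 52.2 and 54.5 in TCP and 60.95 in MPG. The TCP and MPG values of petD lay between its 2 BCP values, so no decline after BCP was seen with these few arrays. petG, a small membrane subunit of the same complex, read 394 and 576 in UNM, 69.1 and 72.8 in BCP, 38.1 and 23.9 in TCP and 17.4 in MPG, the single value of the 8 genes under 20.

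rbcL read 685 and 777 in UNM, 160.0 and 151 in BCP, 95.6 and 93.1 in TCP and 81.6 in MPG, with the closest replicates of the 8 in TCP. Replicate 2 was the higher of the pair for 7 of the 8 genes in UNM, 6 in BCP and 3 in TCP. petB went against the others in UNM, where its replicate 2 was 0.939 times replicate 1, and this ratio was 0.583 in BCP and 0.458 in TCP. Over the other 61 plastid genes the median of the same ratio was 1.29 in UNM, 1.12 in BCP and 0.918 in TCP. The part of the 3′ to 5′ difference between replicate numbers in these ratios was not tested.

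**Figure D1:**
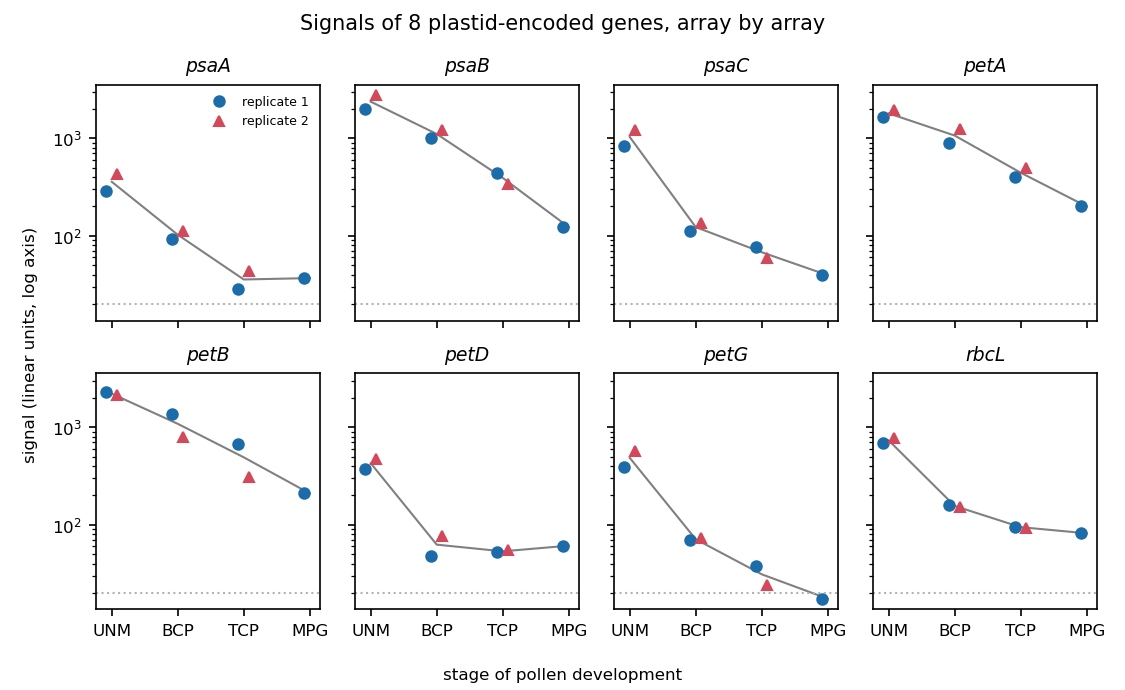
Signal of each of the 8 plastid genes (linear units on a log axis) against the stage of pollen development, with circles for replicate 1, triangles for replicate 2, a line through the arithmetic means of a stage and a dotted line at the floor of 20. All genes are highest in UNM. The means of psaB, psaC, petA, petB, petG and rbcL are lower at each later stage, and the petD values of TCP and MPG lie between those of BCP.

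Between microspores and mature pollen the signal fell for 8 of 8 genes, where 40.4% of all probe sets tested fell and 20.1% rose. The log2 differences ran from -2.80 for petD (6.95-fold lower, SE 0.34, adjusted p = 0.0010, limma) to -4.68 for psaC (25.7-fold lower, SE 0.32, adjusted p = 0.00016). psaB was 19.1-fold lower and petG at least 23.8-fold lower, a bound because its MPG signal was at the floor. The other 4 genes were 8.94-fold (rbcL), 8.97-fold (petA), 9.53-fold (psaA) and 10.5-fold (petB) lower. The median over the 8 genes was -3.32, against -3.93 over the 61 other plastid genes, all of which fell, and -0.53 over all probe sets tested. The same 8 genes had all fallen by TCP, where 39.7% of probe sets had fallen and 20.9% risen. The log2 differences to TCP ran from -2.02 for petA (SE 0.24, adjusted p = 0.00080) to -3.98 for petG (SE 0.30, adjusted p = 0.00014), with a median of -2.97 beside -3.00 over the other plastid genes. Both comparisons use the same UNM arrays.

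From UNM to BCP psaC fell 8.29-fold, petD 6.98-fold, petG 6.72-fold and rbcL 4.69-fold. psaA, psaB, petB and petA were 3.43-fold, 2.12-fold, 2.11-fold and 1.71-fold lower in BCP, and these differences did not pass. With the replicate number as a block psaA passed (adjusted p = 0.015). So 4 of 8 genes, or 5 with the block, fell and none rose, where 0.494% of all probe sets tested fell and 2.03% rose. Of the other plastid genes 30 of 61 fell. The adjusted p was 0.0051 for rbcL, 0.0068 for psaC, 0.0094 for petD, 0.013 for petG and 0.0501 for psaA in limma. For psaB, petA and petB it was 0.11, 0.21 and 0.31. The UNM and BCP arrays did not overlap for any of the 8 genes, nor for 56 of the other 61. This was not counted over all probe sets, so how common such a separation is on these arrays is not known. With any 1 UNM, BCP or TCP array left out, all 8 log2 differences stayed below 0, with medians from -2.20 to -1.81. That covers direction and size only and does not show that the calls hold without the array. In a fit of the UNM and BCP arrays alone none of the 8 falls passed after adjustment, although all 8 had an unadjusted p below 0.05. In that fit 0 of all 14364 probe sets tested fell and 0 rose.

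Expressed as a share of the whole log2 fall from UNM to MPG, the part already complete in BCP was 100.2% for petD, 70.6% for rbcL, 65.1% for psaC, 60.1% for petG and 54.7% for psaA. It was 31.7% for petB, 25.5% for psaB and 24.4% for petA. For petG the share is an upper bound, since the fall to MPG is itself a lower bound. Genes of 1 complex lay far apart in this order, petD and petA for cytochrome b6f and psaC and psaB for photosystem I. These shares have no error of their own.

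**Figure D2:**
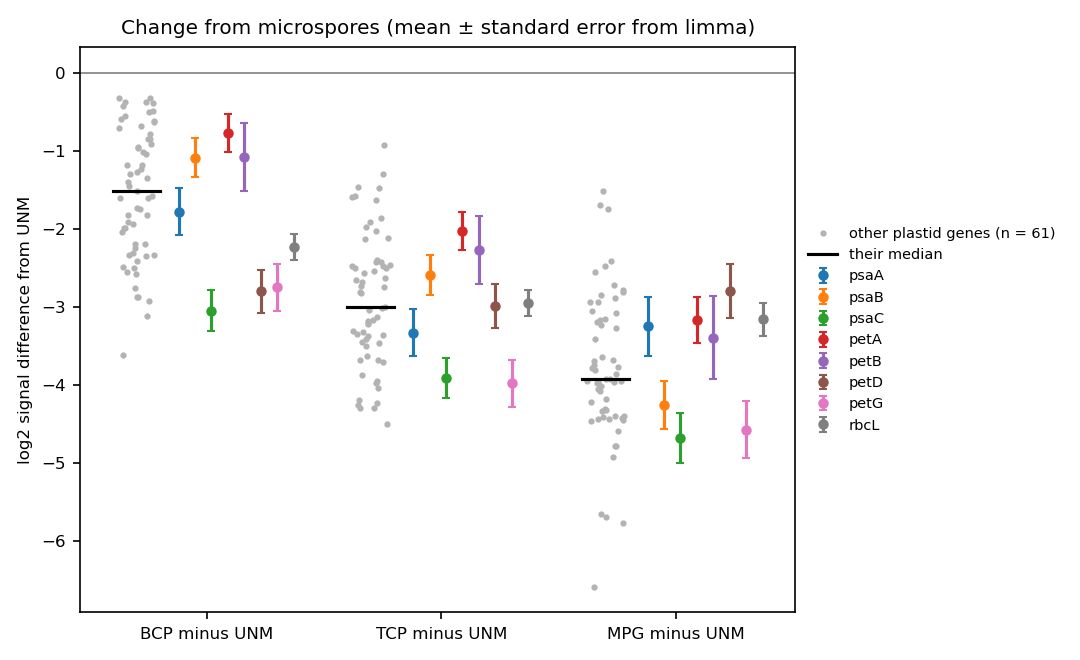
Log2 signal difference from UNM in BCP, TCP and MPG for the 8 genes (coloured points, bars for the standard error from limma) and for the 61 other plastid genes (grey points, black line at their median). At BCP the 8 genes spread from -0.77 to -3.05 around the other genes' median of -1.51, and in MPG all 8 lie at or below -2.80.

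To compare the 8 genes with the plastid genes as a whole, each array was centred on the median log2 signal of the other 61 plastid genes. On this scale psaC was 2.78-fold lower in BCP than in UNM (log2 difference -1.47, SE 0.41, adjusted p = 0.00051, limma), petD 2.34-fold lower (-1.23, adjusted p = 0.0032) and petG 2.25-fold lower (-1.17, adjusted p = 0.0047). Every gene had the same SE in this fit, since limma pooled the spread fully over all probe sets, so these p-values do not use the spread of each gene. The centred fit was not run with the replicate block. petA was 1.75-fold higher than the plastid genes as a whole (0.81, adjusted p = 0.049, unadjusted p = 0.047). Centring moved most probe sets past the threshold, so the adjustment over all of them was weak in this fit. With 3 genes lower and 1 higher of 8, and 11 lower and 14 higher of the other 61, these stand beside 0.0975% lower and 96.5% higher over all probe sets, most of which did not share the plastid decline. When arrays were instead centred on the summed plastid signal, psaC, petD and petG stayed lower (-2.14, -1.89 and -1.84), psaA and rbcL were also lower (-0.87 and -1.32) and the call of petA was lost (0.14, adjusted p = 0.69). psaB and petB were at 0.49 and 0.50 with the median and at -0.17 and -0.17 with the sum, and passed with neither. On the median scale 0 of the 8 were lower in the other comparisons. petD and rbcL were higher from BCP to TCP (6.68% of probe sets lower, 63.7% higher), petA and petB from UNM to TCP (1.19% lower, 89.8% higher), petD from UNM to MPG (0.0696% lower, 95.7% higher) and none from TCP to MPG (1.47% lower, 29.8% higher), where petD alone had an unadjusted p below 0.05 (0.041). With the summed signal 5 were lower from UNM to TCP and 3 from UNM to MPG, so these calls rest on the choice of centring.

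Many plastid genes are transcribed together with their neighbours into long RNAs that are then cut, so adjacent genes were compared. Pairs were taken by gene order alone, without the strand, so the genes of a pair need not be transcribed together. Of the genes that stand next to one of the 8 in the annotation's order, 11 had a probe set of their own. petB and petD, neighbours in the cluster that begins with psbB, gave different falls from UNM to BCP, at -1.08 and -2.80. rpoA, which follows petD and encodes a subunit of the plastid RNA polymerase, gave 997 and 1153 in UNM and 464 and 583 in BCP, a log2 difference of -1.04. petD thus fell more than the gene on either side of it. At MPG the order was turned, rpoA reading 51.0, at a log2 difference of -4.39 from UNM against -2.80 for petD.

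psaA and psaB lie in a row with ycf3 on one side and rps14, a gene for a ribosomal protein of the small subunit, on the other. rps14 read 433 and 656 in UNM and 51.2 and 73.9 in BCP and fell by 3.12 (adjusted p = 0.0077), whereas psaB beside it was at -1.09. psaC lies between ndhD and ndhE, which encode subunits of the NADH dehydrogenase-like complex. ndhD read 1287 and 1981 in UNM and 529 and 744 in BCP, at -1.35, while psaC fell by 3.05. On the other side ndhE read 669 and 1148 in UNM and 215 and 141 in BCP and fell by 2.33 (adjusted p = 0.046, or 0.057 with the block). atpB, for a subunit of the ATP synthase, stands next to rbcL and read 5228 and 7110 in UNM and 3643 and 5671 in BCP, at -0.42, while rbcL fell by 2.23. petL, a small cytochrome b6f subunit next to petG, fell by 1.40.

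Whether such neighbours differed was tested with limma on the log2 ratio of their signals, over all 52 adjacent plastid pairs with 1 probe set each, a test chosen after the values were seen. Pairs that share a gene are not independent. The ratio changed from UNM to BCP for 18 of 52 pairs (34.6%) falling in 11.5% and rising in 23.1%, and for 7 of the 13 that hold one of the 8 genes. The ratio of rps14 to psaB fell 4.08-fold (adjusted p = 0.00034) and that of petD to rpoA 3.39-fold (adjusted p = 0.00097). The ratio of atpB to rbcL rose 3.50-fold (adjusted p = 0.00097), that of petB to petD 3.31-fold (adjusted p = 0.0072), that of ndhD to psaC 3.26-fold (adjusted p = 0.0010), that of petL to petG 2.55-fold (adjusted p = 0.0097) and that of petA to psbJ 2.08-fold (adjusted p = 0.047). Adjusted p for the ratio of psaB to psaA was 0.17, with a 95% interval of the log2 difference from -0.14 to 1.53, and for cemA to petA it was 0.71, from -0.99 to 0.63. The ratio of psaC to ndhE did not pass either (log2 difference -0.72, adjusted p = 0.15), nor did those of rbcL to accD (-0.96, adjusted p = 0.056), psbH to petB (-0.96, adjusted p = 0.056) and psaA to ycf3 (0.42, adjusted p = 0.38). With the replicate number as a block the ratios of psaB to psaA (adjusted p = 0.043), psaC to ndhE (0.037), rbcL to accD (0.0050) and psbH to petB (0.0050) passed. In each of the 7 pairs that passed without the block, the probe set brighter in UNM fell less. For example, the UNM mean was 2378 for psaB and 545 for rps14. The pairs psaA to ycf3 and psaC to ndhE went the other way. The part of brightness in these ratios was not tested. The changes in the ratios of rps14 to psaB, petD to rpoA and ndhD to psaC passed with any 1 array left out. That of petB to petD did not without UNM replicate 1 (log2 difference 1.94), UNM replicate 2 (1.51) or BCP replicate 1 (0.99). The call was also lost for petL to petG without either UNM array, for atpB to rbcL without UNM replicate 1 and for petA to psbJ without UNM replicate 1, UNM replicate 2 or BCP replicate 2.

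**Figure D3:**
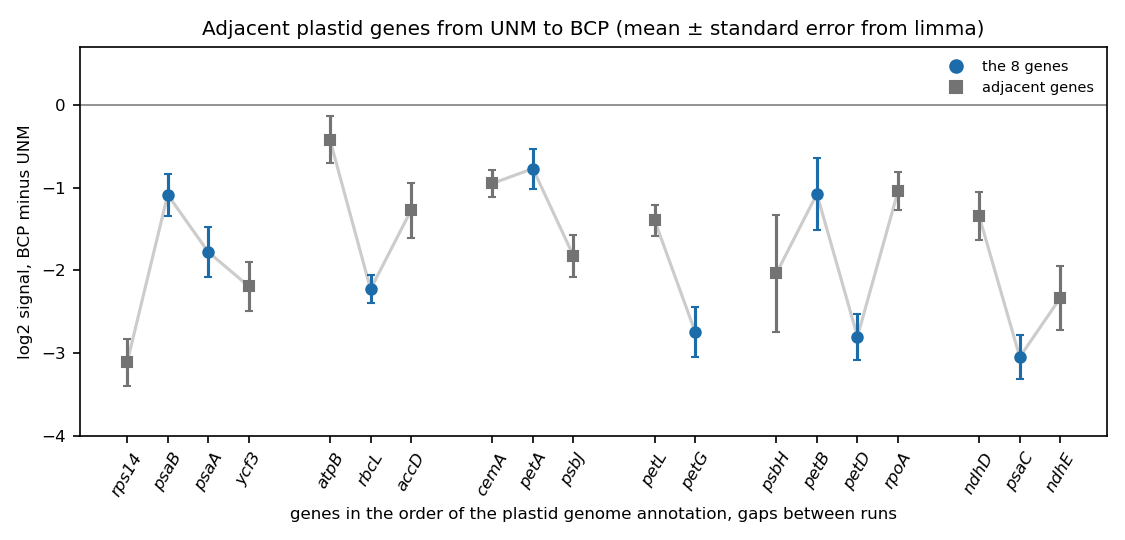
Log2 signal difference from UNM to BCP (standard error from limma) for the 8 genes (circles) and the genes beside them (squares), in 6 runs that follow the order of the plastid genome annotation. Neighbours such as rps14 at -3.12 and psaB at -1.09, or petB at -1.08 and petD at -2.80, lie far apart.

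From BCP to TCP the signal fell for 6 of 8 genes, where 37.5% of all probe sets tested fell and 19.0% rose. psaA was 2.93-fold lower (log2 difference -1.55, SE 0.30, adjusted p = 0.0067, limma) and psaB 2.84-fold lower (adjusted p = 0.0036). petA, petG, psaC and rbcL fell 2.38-fold, 2.35-fold, 1.82-fold and 1.65-fold. petB was 2.29-fold lower with an adjusted p of 0.059, or 0.016 with the block, its replicates being 674 and 309 in TCP. petD was at -0.19 (SE 0.28, adjusted p = 0.60), and at 0.29 with quantile normalization. The median of the 8 was -1.21 beside -1.38 over the other plastid genes, of which 46 of 61 fell, and -0.33 over all probe sets. Over all probe sets 5391 were lower and 2726 higher in TCP, and with quantile normalization, which moved that median to 0.01, 4258 were lower and 3810 higher. With quantile normalization 4 of the 8 fell, psaC, petG and rbcL no longer passing. With scaling from the spiked controls 2 did, where 2917 of 15079 probe sets fell. The actin 3′ to 5′ ratio turned from positive to negative in the same step, and its part in these falls was not tested. Between 3 and 6 fell when 1 array was left out, with 3 without BCP replicate 1 and 4 without BCP replicate 2 or either TCP array.

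From TCP to MPG only psaB passed the threshold among the 8, 3.17-fold lower (log2 difference -1.66, SE 0.31, adjusted p = 0.029, limma), where 7.43% of all probe sets fell and 5.02% rose. petA was at -1.14 (adjusted p = 0.063), and at -0.97 with the block, where it passed (adjusted p = 0.037), so that 2 of 8 then fell. petB was at -1.12 (adjusted p = 0.23). psaC and rbcL were at -0.77 and -0.21, and petD was at 0.19. psaA was at 0.08, and at -0.03 with quantile normalization. The fall of psaB did not pass after adjustment with any 1 UNM, BCP or TCP array left out.

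Another 6 plastid genes of photosystem I and cytochrome b6f were measured, the small subunits psaI, psaJ, petL and petN and the photosystem I assembly factors ycf3 and ycf4. All 6 fell from UNM to TCP and to MPG, with log2 differences of -3.05 (petL) to -4.41 (ycf3) in MPG. psaJ read 1557 and 2458 in UNM, 1055 and 1537 in BCP, 732 and 582 in TCP and 124 in MPG. psaI read 1285 and 2089 in UNM, 873 and 1274 in BCP, 673 and 657 in TCP and 194 in MPG. Neither of these small photosystem I subunits passed from UNM to BCP (psaJ -0.62, psaI -0.64), and both fell from TCP to MPG by 2.40 (adjusted p = 0.021) and 1.78 (adjusted p = 0.038). ycf3 read 580 and 764 in UNM, 112 and 188 in BCP, 35.8 and 32.3 in TCP and 31.3 in MPG, with log2 differences of -2.20 (adjusted p = 0.025) and -2.10 (adjusted p = 0.0018) in the first 2 steps. petL, petN, ycf3 and ycf4 fell from UNM to BCP, psaJ, petN, ycf3 and ycf4 from BCP to TCP, and psaI, psaJ and petL from TCP to MPG.

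Of 54 nuclear genes for subunits, assembly and RNA factors of the same complexes and of Rubisco, 11 had a probe set of 1 gene and 9 reached 40 on some array. AT5G28500 and AT1G22700 did not, with highest signals of 37.9 and 22.5. From UNM to BCP 0 of the 9 fell and 0 rose in limma, where only 0.494% of all probe sets tested fell and 2.03% rose. Of the 9, 2 had an unadjusted p below 0.05, and the median was 0.09. Their signals in UNM ranged from 7.15 to 216. AT2G26500 read 188 and 216 in UNM, 255 and 263 in BCP, 68.4 and 59.8 in TCP and 43.6 in MPG. It fell by 2.02 from BCP to TCP (adjusted p = 0.00031), after UNM and BCP values that did not differ beyond the test (0.36, adjusted p = 0.41). HCF101, which supplies iron-sulfur clusters to photosystem I, read 65.0 and 75.0 in UNM, 42.3 and 61.7 in BCP, 26.2 and 28.4 in TCP and 4.03 in MPG and fell by 0.90 from BCP to TCP (adjusted p = 0.019). PSAN, the lumenal subunit N of photosystem I, and AT5G51110 also fell between BCP and TCP, by at least 1.87-fold and 2.22-fold, so that 4 of 9 fell and none rose in this step, where 37.5% of all probe sets fell. With the block CCDA rose here (0.74, adjusted p = 0.046).

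PSAE-1, for subunit E on the stromal side of photosystem I, went the opposite way. It read 36.4 and 51.4 in UNM, 68.6 and 73.4 in BCP, 65.1 and 77.1 in TCP and 149 in MPG. Its MPG signal was 3.45-fold higher than in UNM (log2 difference 1.79, SE 0.28, adjusted p = 0.0027, limma), where 20.1% of probe sets rose, and did not pass with scaling from the spiked controls. Its difference from TCP to MPG was 1.08 (adjusted p = 0.062) and passed with the block (adjusted p = 0.028). It was the only 1 of the 9 that rose between UNM and MPG, while AT2G26500, HCF101, AT5G51110 and RCA fell, 4 of 9 beside 40.4% of all probe sets. With the block the call of RCA was lost (adjusted p = 0.065). RCA, the Rubisco activase, read 77.2 and 90.4 in UNM, 125 and 173 in BCP, 103 and 77.0 in TCP and 44.0 in MPG. At BCP the RCA arrays lay above the UNM arrays while rbcL lay below, but the RCA difference of 0.82 did not pass (adjusted p = 0.20). CCDA, a thylakoid membrane protein of cytochrome assembly, read 86.8 and 87.3 in UNM, 64.2 and 112 in BCP, 133 and 150 in TCP and 55.0 in MPG. CCDA passed in no step without the block.

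**Figure D4:**
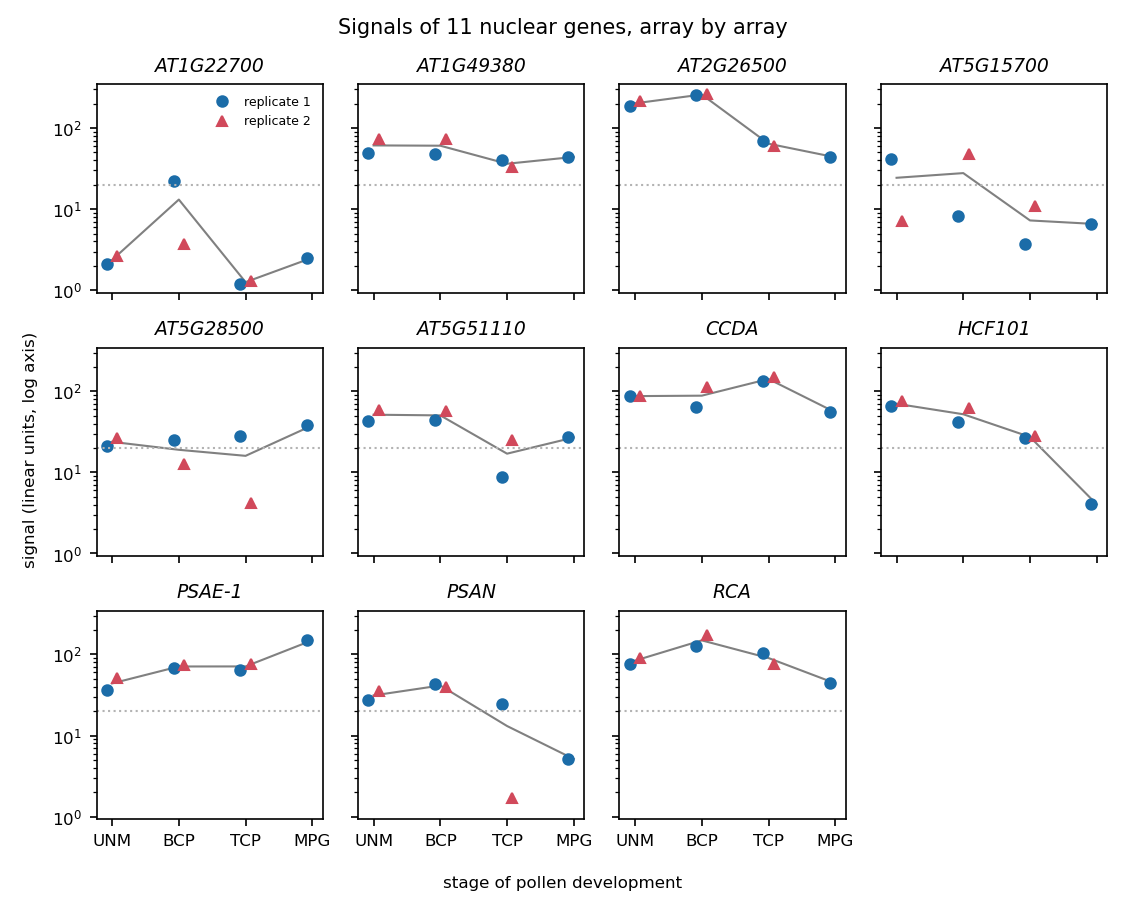
Signal of the 11 nuclear genes (linear units on a log axis) against the stage, with circles for replicate 1, triangles for replicate 2, a line through the arithmetic means and a dotted line at 20. PSAE-1 is highest in MPG (149), and AT2G26500 declines after BCP.

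The genes whose log2 signals followed the mean of the 8 most closely over the 7 arrays were all plastid-encoded. They were psbB (Pearson r = 0.997), ccsA (0.996), psbC (0.992), petN (0.991) and ycf4 (0.990), among 8235 named candidates. The 7 points come from 4 stages and share the scaling of each array. psbB, for the CP47 antenna protein of photosystem II, read 1205 and 1795 in UNM, 178 and 225 in BCP, 80.03 and 73.6 in TCP and 28.3 in MPG. Of the 20 genes most like the mean 14 were plastid-encoded, and of the first 50 it was 23. None of the first 50 was mitochondrial.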

How the data were processed

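The authors deposited 1 linear intensity per probe set of 7 ATH1 arrays, already scaled to a 2% trimmed mean of about 100 on each, made with software not given in the sources used here. After 64 control probe sets had been left out, the remaining 22746 were rescaled (factors 1.0057 to 1.0084). The number of arrays limits the precision, and all deposited columns were used. Biological replicates came from independently grown plants. UNM, BCP and TCP share replicate numbers 1 and 2 in the labels. Deviations from the stage means of equal numbers correlated at 0.44, 0.22 and 0.28 over probe sets, so the numbers were taken to pair the arrays. The main fit has no block, and blocked values stand beside results they change. The limma fit (limma 3.58.1, R 4.3.3) had 3 residual and 2.77 prior degrees of freedom and was adjusted within each of 5 comparisons over all probe sets. It was also run on simulated data with independent normal errors. Those data lacked the correlation between equal replicate numbers, so that run cannot show how the fit behaves under it. Plots were drawn with matplotlib 3.10.9 and tables with pandas 2.3.3 (Python 3.11.15, scipy 1.17.1).

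Genes were named through the array's annotation table and the TAIR10.1 gene table, of which only names and gene order were used. For 6 nuclear genes these tables give a locus only. Strand was not used. The text names the 8 genes, the other plastid genes of photosystem I and cytochrome b6f, adjacent plastid genes, the nuclear partners measured and the 5 genes most like the mean of the 8. The genes and lists were chosen with earlier results of these data known. Alternatives covered scaling, floor, filter, variance model, block and single arrays, and the test of adjacent pairs was added after the values were seen.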

Additional observations from a re-analysis of the deposited data

How the results depend on the processing

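All 8 falls from UNM to MPG passed in all 16 alternatives, and from UNM to TCP in all 18 except that petB was lost without a filter. Of 688 repeated log2 differences of the 8 genes, 603 kept direction and side of the threshold, 63 lost the threshold, 17 passed it newly and 5 changed sign. From UNM to BCP 1 of the 8 fell with scaling from the spiked controls, where 6 of 15079 probe sets fell. Without a filter 1 of the 8 fell as well, where 80 of 22746 did. In a fit of both stages alone 0 of the 8 fell, where 0 of all 14364 probe sets tested fell and 0 rose. With 1 array left out the median difference of the 8 ran from -2.20 to -1.81, which covers size only and not the calls. From BCP to TCP 2 fell with the spiked controls, where 2917 of 15079 probe sets fell. From TCP to MPG 0 fell with the spiked controls, where 0 of 15079 probe sets fell, so that count says nothing particular to the 8. Without a filter 0 of the 8 fell, where 748 of 22746 did. With log2(signal + 16), a minimum of 80, an intensity trend or the replicate block 2 fell, beside 1182 to 1454 of all probe sets tested. For petD from BCP to TCP the difference was 0.29 with quantile normalization and -0.53 to 0.16 with 1 array left out (0.16 without BCP replicate 2). For psaA from TCP to MPG it was -0.028 with quantile normalization, -0.055 with a floor of 40 and -0.23 to 0.39 with 1 array left out (-0.23 without TCP replicate 1). The log2 ratio of cemA to petA changed by -0.46 to 0.10 with 1 array left out (0.10 without BCP replicate 2).

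Relative to the other plastid genes, centring on their summed signal gave 5 lower and 0 higher from UNM to BCP, 1 higher from BCP to TCP and 1 from TCP to MPG, 5 lower and 0 higher from UNM to TCP, and 3 lower and 0 higher from UNM to MPG, with psaB at -0.17 and petB at -0.17 from UNM to BCP. With 1 array left out 2 to 4 were lower and 0 to 1 higher from UNM to BCP, 0 lower and 0 to 3 higher from BCP to TCP, 0 lower and 0 to 2 higher from TCP to MPG, 0 to 1 lower and 1 to 2 higher from UNM to TCP, and 0 lower and 0 to 3 higher from UNM to MPG.

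For the nuclear genes from BCP to TCP 1 fell with the spiked controls or a floor of 40 and 2 without a filter or with a minimum of 80, and 1 rose with quantile normalization, a minimum of 80 or the block. From TCP to MPG 1 fell with a floor of 10 or a minimum of 80 and 2 with log2(signal + 16), and 1 rose with quantile normalization, a floor of 40, log2(signal + 16), a minimum of 80 or the block. From UNM to TCP 1 fell with the spiked controls or a minimum of 80, and 2 rose with quantile normalization and 0 with the spiked controls, log2(signal + 16) or no filter. From UNM to MPG 1 fell with the spiked controls or a floor of 40 and 2 with quantile normalization, no filter or a minimum of 80, and 0 rose with the spiked controls. With 1 array left out 0 fell and 0 rose from UNM to BCP, 2 to 4 and 0 to 1 from BCP to TCP, 0 to 1 and 0 from TCP to MPG, 2 to 3 and 0 to 1 from UNM to TCP, and 2 to 4 and 1 from UNM to MPG. Except where the construction shows it, as with fewer arrays or more probe sets tested, the cause was not tested.

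With the replicate block 5, 7, 2, 8 and 8 of the 8 genes fell in the 5 comparisons, psaA passing from UNM to BCP, petB from BCP to TCP and petA from TCP to MPG, and it changed no other call of the 8 genes. Of the named neighbours, ndhE lost its call from UNM to BCP (adjusted p = 0.057) and rpoA and cemA passed (0.039 and 0.048). Over all probe sets quantile normalization moved the split of lower and higher calls from 5704 and 2996 to 4571 and 4028 from UNM to TCP and from 5808 and 2880 to 4753 and 3773 from UNM to MPG. Scaling from the spiked controls moved the median of all probe sets from -0.33 to -0.66 from BCP to TCP. With 2 arrays per stage and 1 of MPG, small differences such as those of petD after BCP are not detectable, and signals near 20 have no order.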
